A study of Homo sapiens with 20 samples.

Results

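The genes described here encode ligands by which a tumor cell can restrain or alert immune cells, measured as RNA in orthotopic tumors of OVCAR8, a human high-grade serous ovarian carcinoma cell line. They were chosen by symbol: *CD274*, *CD276*, *VTCN1*, *PVR*, *NECTIN2*, *CD47*, *LGALS9*, *IDO1*, *MICA* and *ULBP2*. All 10 were rows of a table of 24196 genes. The study asked whether sodium gluconate, a small molecule given as a modulator of the TMEM87A channel protein, acts on such tumors. The series holds 20 samples, of which 8 are tumors. The PBS group (4 libraries) came from NSG mice that received phosphate-buffered saline. The gluconate group (4 libraries) came from NSG mice given 1 mg/kg sodium gluconate, and in both groups the injections were intraperitoneal, once a week, over 35 days. In the study's methods the cells were placed orthotopically, in the fat pad of the ovary, when the mice were 6 weeks old. By the study's legend, tumors of both groups grew from OVCAR8-sgNC-luc, the control line of the study's knockouts with a luciferase-mCherry reporter. NSG mice lack T, B and natural killer cells, so the lymphocytes that carry most receptors of these ligands were not present in the host. No label ties the libraries of a group to separate mice, and the p-values therefore measure the spread between these libraries, which may be technical.

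The ligands work through a small number of receptor axes. PD-L1 (the product of *CD274*) engages PD-1 on T cells, and the related B7 proteins B7-H3 (*CD276*) and B7-H4 (*VTCN1*) also dampen T cells. PVR and NECTIN2 bind the activating receptor CD226 and the inhibitory receptor TIGIT, and NECTIN2 binds PVRIG as well. CD47 tells macrophages not to engulf the cell through SIRPα. Galectin-9 (*LGALS9*) binds TIM-3, and IDO1 is an enzyme that breaks down tryptophan and so starves T cells. MICA and ULBP2 act the other way, since they call natural killer and cytotoxic T cells through NKG2D and let tumors escape when they are shed or lost. Interferon gamma is the best known inducer of *CD274* and *IDO1*.

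The libraries were deposited as FPKM in columns lettered C and T, read as PBS and gluconate. FPKM is the number of sequenced fragments scaled by gene length and library size. The steps between FPKM values gave back the whole fragments, and 7 libraries held between 39325749 and 46551535 of them. PBS replicate 4 held 3953206. It was also the library least like the others, with a correlation across genes of at most 0.951 (log2 values, genes tested), against at least 0.980 among the other 7. The fold changes of the ligand genes are therefore given with and without it. Keratins *KRT7*, *KRT8* and *KRT18*, *PAX8* and *MSLN* were well above 10 FPKM in every library. Of the 12 carcinoma and epithelial markers looked at, 4 had a mean under 0.1 FPKM. Among these, *MUC16*, *KRT19* and *CDH6* were under 0.1 FPKM in every library. Of 17 human leukocyte markers 11 were listed, and their summed level was 1.23 to 1.77 FPKM in PBS and 1.10 to 1.70 FPKM in gluconate tumors. *ITGAM* had the highest level of them and reached 1.36 FPKM in PBS replicate 4, against 0.691 to 0.810 elsewhere, while *PTPRC*, *CD14* and *NKG7* lay under 0.1 FPKM throughout.

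The 10 genes spanned the range from abundant to undetected, and the plot of levels by library shows them in the order of their mean. *NECTIN2* stood highest with a mean of 30.2 FPKM over 8 libraries, above 83.8% of the 12486 genes that passed the filter of a mean FPKM of at least 0.5. *CD47* followed at 21.6 FPKM, *PVR* at 14.9, *MICA* at 14.0 and *CD276* at 11.7. *CD274* and *ULBP2* had 4.5 and 3.77 FPKM and *LGALS9* 1.29 FPKM. *IDO1* (0.230 FPKM) and *VTCN1* (0.000817 FPKM) lay under the filter and were not part of the fit across genes. Neighbours in this order were separated without overlap of their ranges at *NECTIN2* over *CD47*, *CD47* over *PVR*, *CD276* over *CD274*, *ULBP2* over *LGALS9* and *IDO1* over *VTCN1*. *PVR* exceeded *MICA* in 6 of 8 libraries and *CD274* exceeded *ULBP2* in 6 of 8, so these neighbours were not separated beyond their spread. *MICA* exceeded *CD276*, and *LGALS9* exceeded *IDO1*, in 8 of 8 libraries, although the ranges overlapped between libraries. The order of the means was the same without PBS replicate 4.

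**Figure D1:**
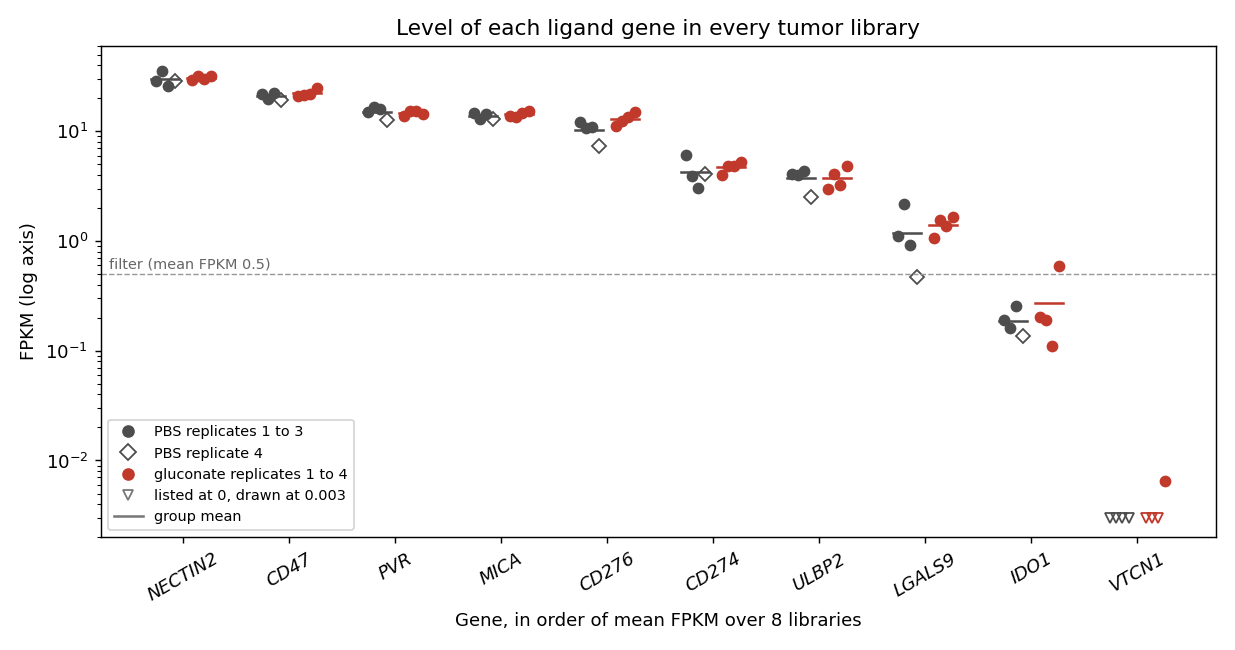
FPKM (log axis) of each of the 10 genes in the 4 PBS and 4 gluconate libraries; bars are group means, open diamonds mark PBS replicate 4 and triangles mark libraries listed at 0. The ligands of the nectin family and *CD47* sit at the top, *IDO1* and *VTCN1* lie under the filter, and the groups overlap for all 10 genes.

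No difference between gluconate and PBS tumors larger than the spread between libraries was found in any of these ligands. None of the 8 genes tested passed an adjusted p of 0.05 with limma and Benjamini-Hochberg adjustment over all genes, and none had an unadjusted p under 0.05. Over all 12486 genes 0% passed the adjusted threshold and 4.62% had an unadjusted p under 0.05, so this comparison made no adjusted call for any gene. With limma's voom on the recovered fragments the counts of these 8 genes were again 0 at both thresholds. Leaving out 1 library at a time brought single genes to an unadjusted p under 0.05 by limma in 3 of 8 cases. Over all genes this share was 9.74% without PBS replicate 1, 7.0% without PBS replicate 2 and 3.64% without gluconate replicate 1. The ligand genes were *CD274* (log2 fold change 0.37) and *CD276* (0.44) without PBS replicate 1, *LGALS9* (0.75) without PBS replicate 2 and *CD276* (0.42) without gluconate replicate 1, with adjusted p values of at least 0.491. The median log2 fold change of the 8 genes was 0.08, beside 0.07 over all genes tested. Of the 8 estimates 7 lay above 0, and 66.4% of all genes tested did so. With median-ratio scaling, which centers all genes near 0, 4 of 8 lay above 0, beside 50.9% of all genes, and the median was 0.0106. Without PBS replicate 4 it was 6 of 8, beside 49.1%, with a median of 0.05, against -0.00294 over all genes. FPKM values of the groups overlapped for all 10 genes, with and without PBS replicate 4. Groups that did not overlap were found in 3.49% of genes tested with 8 libraries and in 6.1% without PBS replicate 4. In the plot of fold changes the 95% intervals of all 8 genes include 0.

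**Figure D2:**
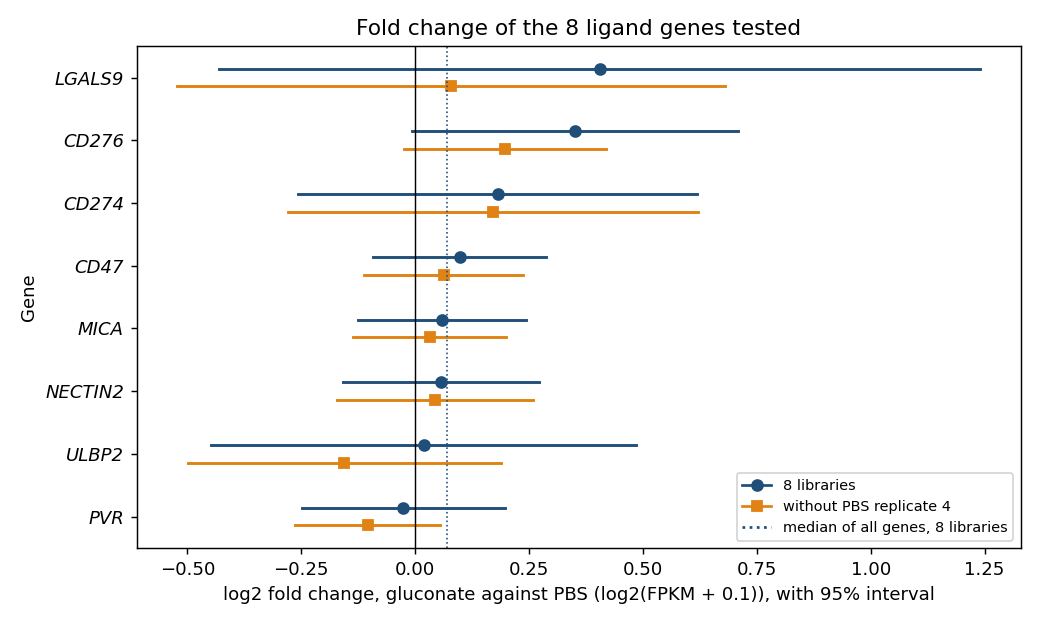
log2 fold change of gluconate against PBS (log2(FPKM + 0.1) scale) with its 95% interval from limma for the 8 genes tested, with all libraries (circles) and without PBS replicate 4 (squares); the dotted line is the median of all genes, 0.07. All intervals include 0, and those of *LGALS9*, *ULBP2* and *CD274* are wide.

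*CD276* came nearest to a difference. It encodes B7-H3, a B7 protein found on many carcinomas, and lies at chr15:73683944-73714514 (GRCh38.p14, plus strand). Its FPKM was 12.2, 10.7, 11.0 and 7.33 in PBS replicates 1 to 4. The gluconate replicates 1 to 4 had 11.3, 12.5, 13.5 and 14.9 FPKM. PBS replicate 1 lay above gluconate replicate 1, and every other PBS library lay below every gluconate library. The means were 10.3 ± 2.08 FPKM in PBS and 13.0 ± 1.54 FPKM in gluconate (SD, n = 4 each). The log2 fold change was 0.35 (SE 0.16, 95% interval -0.01 to 0.71), with an unadjusted p of 0.0531 and an adjusted p of 0.74 by limma. The exact permutation test over the 70 splits (two-sided, smallest possible p 0.0286) gave p = 0.0571. Much of the estimate rested on PBS replicate 4, where *CD276* had 110 fragments and a counting interval of 6.03 to 8.84 FPKM (95%, Poisson). That interval lay under the value of every other library. Without that library the log2 fold change was 0.20 (95% interval -0.02 to 0.42, adjusted p = 0.808 by limma).

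*CD274* was expressed at a modest level in both groups. It lies at chr9:5450542-5470554 (GRCh38.p14, plus strand) beside *PDCD1LG2*, which encodes the other PD-1 ligand, PD-L2. PBS replicates 1 to 4 had 6.13, 3.89, 3.03 and 4.05 FPKM of *CD274*. The gluconate replicates had 4.04, 4.82, 4.81 and 5.24 FPKM. Both the highest and the lowest value belonged to PBS libraries, and the gluconate values fell between them. The log2 fold change was 0.18 (95% interval -0.26 to 0.62, adjusted p = 0.775 by limma). It was 0.17 without PBS replicate 4, 0.0363 without PBS replicate 3 and 0.37 without PBS replicate 1, so the estimate depended on single PBS libraries. The interval reached from a fold of 0.837 to a fold of 1.54, so larger changes of *CD274* lay outside it. *PDCD1LG2* had 2.88, 1.09, 1.2 and 3.20 FPKM in PBS and 1.99, 2.03, 2.71 and 3.17 FPKM in gluconate tumors. The ratio of *CD274* to *PDCD1LG2* ranged from 1.26 in PBS replicate 4 to 3.58 in PBS replicate 2, and PD-L1 RNA was above PD-L2 RNA in all 8 libraries. *CMTM6*, whose product keeps PD-L1 at the cell surface, had 27.9 ± 3.92 FPKM in PBS and 31.9 ± 1.5 FPKM in gluconate (SD, n = 4; log2 fold change 0.20, adjusted p = 0.74 by limma, and 0.10 without PBS replicate 4).

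The stretch before the *CD274* start is shown because interferon regulatory factors act on this gene through repeats of GAAA. The motif searched, on both strands, was GAAA, any 2 bases and GAAA again. The stretch holds 2 overlapping matches, which read TTTC, any 2 bases and TTTC on the strand printed. They are in capitals, and the first begins 208 bases before the start. The sequence is RefSeq's (GRCh38.p14, plus strand, chr9:5450292-5450502), and 39 bases nearer the start were left out because GENCODE 29 annotates an exon there.
CD274: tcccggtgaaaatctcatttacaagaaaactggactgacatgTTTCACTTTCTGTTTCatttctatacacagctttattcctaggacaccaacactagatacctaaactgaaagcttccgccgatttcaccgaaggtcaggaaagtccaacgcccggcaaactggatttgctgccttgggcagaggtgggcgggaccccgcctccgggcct
Windows of 300 bases around the start (250 before, 50 after) were matched for 9 of the 10 genes. No window was matched for *IDO1*, so it was not searched for the motif. *LGALS9* held 1 match to this motif on either strand, and the windows of the other 7 genes held none. Over 35116 promoters of the same length 3.57% held at least 1. A match describes letters only, and binding was not measured.

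*VTCN1* was not detected. B7-H4 is known as an antigen of many ovarian carcinomas, and its gene lies at chr1:117143587-117210927 (minus strand). It was listed at 0 in 7 libraries, and 1 fragment was found in gluconate replicate 4 (0.00653 FPKM). A count of 0 allows up to 3 fragments, which is 0.212 FPKM in PBS replicate 4 and at most 0.0213 FPKM in the other libraries listed at 0. These limits cover counting error only. No fold change is given, since both groups were at or under that floor.

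*CD47* and *VTCN1* mark nearly the top and the bottom of the order, and the stretches before their starts differ in CG pairs, which are the sites of DNA methylation. CG pairs are in capitals, both stretches are on the minus strand of GRCh38.p14 (RefSeq), and neither overlaps a GENCODE 29 exon. The first spans chr3:108091032-108091281 and holds 39 CG pairs in 250 bases. The second spans chr1:117210961-117211177 and holds 5 in 217 bases.
CD47: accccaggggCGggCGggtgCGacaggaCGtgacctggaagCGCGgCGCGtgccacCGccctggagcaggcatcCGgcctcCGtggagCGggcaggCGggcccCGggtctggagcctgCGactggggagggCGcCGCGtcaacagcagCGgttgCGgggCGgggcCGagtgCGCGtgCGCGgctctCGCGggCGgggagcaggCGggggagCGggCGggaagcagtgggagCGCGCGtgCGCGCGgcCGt
VTCN1: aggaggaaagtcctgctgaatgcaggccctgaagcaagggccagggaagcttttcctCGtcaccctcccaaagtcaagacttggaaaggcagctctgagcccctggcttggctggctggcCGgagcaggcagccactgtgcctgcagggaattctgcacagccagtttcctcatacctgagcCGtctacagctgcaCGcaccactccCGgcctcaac
In the full windows of 300 bases *CD47* held 45 CG pairs, *VTCN1* 7 and *LGALS9* 2, beside a median of 14 over all promoters. The other genes with a window held 19 to 37, among them *NECTIN2*, the highest gene of the order, with 26. *LGALS9* held fewer than *VTCN1* and stood above it in the order. *IDO1* had no window. A relation between CG pairs and level was not tested. Methylation was not measured in these tumors.

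*CD47*, the macrophage signal, varied little between libraries. The gene lies at chr3:108043091-108091031. It had 22.1, 19.8, 22.3 and 19.4 FPKM in PBS replicates 1 to 4 and 20.9, 21.7, 22.1 and 24.7 FPKM in the gluconate replicates. The highest library was 1.28 times the lowest, and the groups overlapped. The log2 fold change was 0.10 (95% interval -0.09 to 0.29, adjusted p = 0.743 by limma), which places the fold between 0.938 and 1.22. It was 0.06 without PBS replicate 4 (95% interval -0.11 to 0.24). *QPCTL*, whose enzyme modifies CD47 so that SIRPα can bind it, had 4.98 ± 0.148 FPKM in PBS and 5.49 ± 0.424 FPKM in gluconate (SD, n = 4; adjusted p = 0.74 by limma). The prophagocytic signal calreticulin (*CALR*) had the highest level of its list, 454 ± 35.8 FPKM in PBS and 457 ± 17.0 FPKM in gluconate. *SIRPA*, the gene of the CD47 receptor, was itself found at 3.69 ± 1.11 and 4.14 ± 0.374 FPKM.

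*PVR* and *NECTIN2* lie on the same arm of chromosome 19, at chr19:44643910-44666162 and chr19:44846297-44889223 (both plus strand). *PVR* was at 14.9, 16.7, 15.8 and 12.7 FPKM in PBS and at 13.8, 15.4, 15.2 and 14.4 FPKM in gluconate tumors. PBS libraries held both ends of that range. *NECTIN2* was at 28.9, 35.1, 26.1 and 28.7 FPKM in PBS and at 29.4, 31.9, 29.8 and 31.8 FPKM in gluconate tumors. Again the gluconate values lay inside the PBS range. The log2 fold changes were -0.03 for *PVR* (95% interval -0.25 to 0.20, adjusted p = 0.93) and 0.06 for *NECTIN2* (95% interval -0.16 to 0.27, adjusted p = 0.843), both by limma. Without PBS replicate 4 they were -0.10 (95% interval -0.26 to 0.06) and 0.04 (95% interval -0.17 to 0.26). The ratio of *PVR* to *NECTIN2* was 0.510 ± 0.0716 in PBS and 0.478 ± 0.0238 in gluconate (SD, n = 4). *NECTIN3*, a partner that binds both proteins between cells, had 7.02 ± 1.07 and 8.00 ± 0.650 FPKM (log2 fold change 0.20, and 0.09 without PBS replicate 4). *NECTIN1* had 1.85 ± 0.224 FPKM in PBS and 2.34 ± 0.314 FPKM in gluconate (log2 fold change 0.32, adjusted p = 0.74 by limma, and 0.28 without PBS replicate 4).

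The NKG2D ligands were led by *MICA* and its paralog *MICB*. *MICA* lies in the major histocompatibility complex at chr6:31400711-31415315. It had 14.6, 13.0, 14.3 and 13.0 FPKM in PBS and 13.7, 13.5, 14.6 and 15.3 FPKM in gluconate tumors. Its highest library was 1.18 times its lowest, the smallest such ratio of the genes tested. Its log2 fold change was 0.06 (95% interval -0.13 to 0.24, adjusted p = 0.815 by limma), and 0.03 (95% interval -0.14 to 0.20) without PBS replicate 4. *ULBP2*, at chr6:149942014-149949235, had 4.11, 4.00, 4.38 and 2.53 FPKM in PBS replicates 1 to 4 and 2.99, 4.10, 3.25 and 4.84 FPKM in the gluconate replicates. The PBS replicates 1 to 3 were close together, PBS replicate 4 was lowest on 14 fragments, and the gluconate libraries spread on both sides of them. The log2 fold change of *ULBP2* was 0.02 (95% interval -0.45 to 0.49, adjusted p = 0.98 by limma) and changed sign to -0.16 (95% interval -0.50 to 0.19) without PBS replicate 4. Of the distinct stretches of 150 bases in *ULBP2* transcripts 4.25% also occur in *RAET1L* (GENCODE 29), so a small share of its fragments could have been split. For *MICA* no stretch was shared with another gene.

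The 8 human NKG2D ligand genes of the table summed to 37.4 to 53.0 FPKM per library. *MICA* made up 27.5% to 34.7% of that sum and *ULBP2* 6.75% to 9.67%. Of the 6 genes other than these, 5 were tested. With 8 libraries all 5 had estimates above 0, beside 66.4% of all genes, 2 had an unadjusted p under 0.05, beside 4.62%, and 1 did not overlap, beside 3.49%. Without PBS replicate 4, 4 of 5 lay above 0, beside 49.1%, and 2 had an unadjusted p under 0.05, beside 6.21%. *ULBP1* had 3.15 ± 0.704 FPKM in PBS and 4.47 ± 0.809 FPKM in gluconate (log2 fold change 0.50, unadjusted p = 0.0299, adjusted p = 0.74 by limma, and 0.33 without PBS replicate 4). *RAET1G*, which encodes ULBP5, had 0.863, 0.456, 0.455 and 0.224 FPKM in PBS and 0.888, 0.910, 1.38 and 1.12 FPKM in gluconate tumors, and its groups did not overlap. Its log2 fold change was 1.06 (SE 0.32, unadjusted p = 0.00918, adjusted p = 0.74 by limma), and 0.80 (adjusted p = 0.799) without PBS replicate 4. Neither passed the adjusted threshold. *MICB* (13.1 ± 3.27 and 13.7 ± 1.56 FPKM) and *ULBP3* (7.89 ± 0.881 and 8.31 ± 0.385 FPKM) had estimates of 0.09 and 0.08, and of 0.0182 and -0.00376 without PBS replicate 4. Of 6 genes of ligand shedding, such as the protease genes *ADAM10* and *ADAM17*, 5 were tested, none had an unadjusted p under 0.05, and the median log2 fold change was 0.08.

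The highest library of *LGALS9* was 4.66 times its lowest, the largest such ratio of the genes tested. It lies at chr17:27631188-27649560 and had 1.12, 2.20, 0.912 and 0.472 FPKM in PBS and 1.06, 1.55, 1.38 and 1.67 FPKM in gluconate tumors. The PBS libraries spanned a wider range than the gluconate libraries and enclosed them. The value of PBS replicate 4 rested on 6 fragments, with a counting interval of 0.173 to 1.03 FPKM. The log2 fold change was 0.41 (95% interval -0.43 to 1.24, adjusted p = 0.748 by limma) and 0.08 without that library. In its transcripts 3.37% of the stretches of 150 bases also occur in 2 other annotated genes, which leaves its level slightly uncertain. *LGALS1*, the galectin gene with the highest level, had 1197 ± 140 FPKM in PBS and 1321 ± 104 FPKM in gluconate. *LGALS3* had 136 ± 31.1 and 168 ± 15.3 FPKM (log2 fold change 0.34, unadjusted p = 0.0469, adjusted p = 0.74 by limma, and 0.26 without PBS replicate 4). *HMGB1*, whose product also binds TIM-3, did not overlap between the groups and was lower in gluconate, but PBS replicate 4 stood at 192 FPKM against 40.3 to 62.3 FPKM in the other 7 libraries. Its log2 fold change was -0.76 with that library and -0.32 (unadjusted p = 0.00855, adjusted p = 0.799 by limma) without it.

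*IDO1* RNA was scarce, and 1 gluconate tumor stood above the rest. Its fragments numbered 16, 14, 19 and 1 in PBS replicates 1 to 4 and 15, 15, 8 and 47 in the gluconate replicates. This corresponds to 0.190, 0.163, 0.258 and 0.137 FPKM in PBS and to 0.201, 0.190, 0.110 and 0.595 FPKM in gluconate tumors. The counting interval of gluconate replicate 4 was 0.437 to 0.791 FPKM (95%, Poisson). The highest upper bound among the other libraries was 0.402 FPKM apart from PBS replicate 4, whose interval reached 0.762 FPKM on 1 fragment. The other gluconate libraries lay at the level of the PBS libraries. The exact permutation test gave p = 0.686 (two-sided, 4 against 4). *TDO2*, which encodes the tryptophan dioxygenase of the liver, and *KYNU*, whose enzyme works further down the pathway, stayed at or under 0.0632 and 0.0946 FPKM in every library. *NT5E* (CD73), which makes adenosine, had the highest level of its list with 203 ± 52.2 FPKM in PBS and 161 ± 15.8 FPKM in gluconate (log2 fold change -0.30, adjusted p = 0.74 by limma, and -0.16 without PBS replicate 4).

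The genes that respond to or carry interferon gamma, which induces *CD274* and *IDO1*, were measured in the same libraries. Of 17 genes 16 were tested. With 8 libraries 14 had estimates above 0, beside 66.4% of all genes, and 3 had an unadjusted p under 0.05, beside 4.62%, all of them higher in gluconate. Without PBS replicate 4, 12 of 16 lay above 0, beside 49.1%, and 2 had an unadjusted p under 0.05, beside 6.21%. With 1 library left out the number of higher genes at that threshold ran from 0 without gluconate replicate 4 to 7 without PBS replicate 2, while the share of higher genes over all genes tested moved from 1.27% to 5.33%, and 1 gene was lower without gluconate replicate 4 and 1 without PBS replicate 1. The 3 were the receptor genes *IFNGR1* and *IFNGR2* and the transcription factor gene *IRF9*. *IFNGR1* had 13.0, 11.9, 11.7 and 9.22 FPKM in PBS and 14.2, 13.1, 14.4 and 16.0 FPKM in gluconate tumors, without overlap. Its log2 fold change was 0.34 (SE 0.12, unadjusted p = 0.0169, adjusted p = 0.74 by limma), and 0.24 (adjusted p = 0.799) without PBS replicate 4. *IRF9* had 19.8 ± 6.37 and 28.3 ± 3.46 FPKM (log2 fold change 0.57), and *IFNGR2* had 22.7 ± 2.26 and 26.8 ± 2.82 FPKM (log2 fold change 0.24, adjusted p = 0.74 by limma for both). These estimates were 0.36 and 0.18 without PBS replicate 4. *IRF1*, the factor nearest to *CD274* in this route, had 11.8, 13.0, 7.79 and 6.09 FPKM in PBS and 11.1, 11.6, 10.5 and 14.5 FPKM in gluconate tumors, with overlap. The median of the 16 genes was 0.27 with all libraries and 0.14 without PBS replicate 4, beside 0.07 and -0.00294 over all genes tested.

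Over the 10 lists of genes around these ligands, 70 of 91 listed genes were tested. An unadjusted p under 0.05 was found for 7 of them, all higher in gluconate, which is 10% of the 70. Of all genes tested 4.62% passed in either direction and 3.13% as higher in gluconate. None passed the adjusted threshold with limma. Estimates lay above 0 for 60 of 70, beside 66.4% of all genes tested, with a median of 0.17, beside 0.07 over all genes. Without PBS replicate 4 estimates lay above 0 for 47 of 69, with a median of 0.10, and at an unadjusted p under 0.05 the 5 genes *ULBP1*, *RAET1G*, *IL4I1*, *IFNGR1* and *IRF9* were higher, beside 2.85% of all genes, and *HMGB1* was lower. With median-ratio scaling estimates lay above 0 for 51 of 70 against 50.9% of all genes tested, and 7 genes had an unadjusted p under 0.05, all higher, beside 2.95% of all genes. The number of higher genes ran from 2 without gluconate replicate 3 or gluconate replicate 4, over 13 without PBS replicate 1, to 17 without PBS replicate 2, and at most 2 genes were lower. Over all genes tested the share of higher genes in these fits was 1.32%, 1.27%, 7.43% and 5.33%, so it moved with the left-out library too. The background without PBS replicate 4 was 6.21% of genes at an unadjusted p under 0.05 and 49.1% above 0. The remaining gene of the 7 was *BTN3A1*, a butyrophilin gene whose product is seen by gamma delta T cells, with 4.20 ± 1.17 FPKM in PBS and 6.04 ± 1.43 FPKM in gluconate (log2 fold change 0.53, unadjusted p = 0.0404, adjusted p = 0.74 by limma, and 0.36 without PBS replicate 4). The highest genes of the remaining lists were *BTN2A1*, *PDIA6*, *HLA-E* and *STUB1*, none of which had an unadjusted p under 0.05. As expression of a whole tumor was measured, fewer cells of a type and less RNA per cell cannot be told apart.

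**Figure D3:**
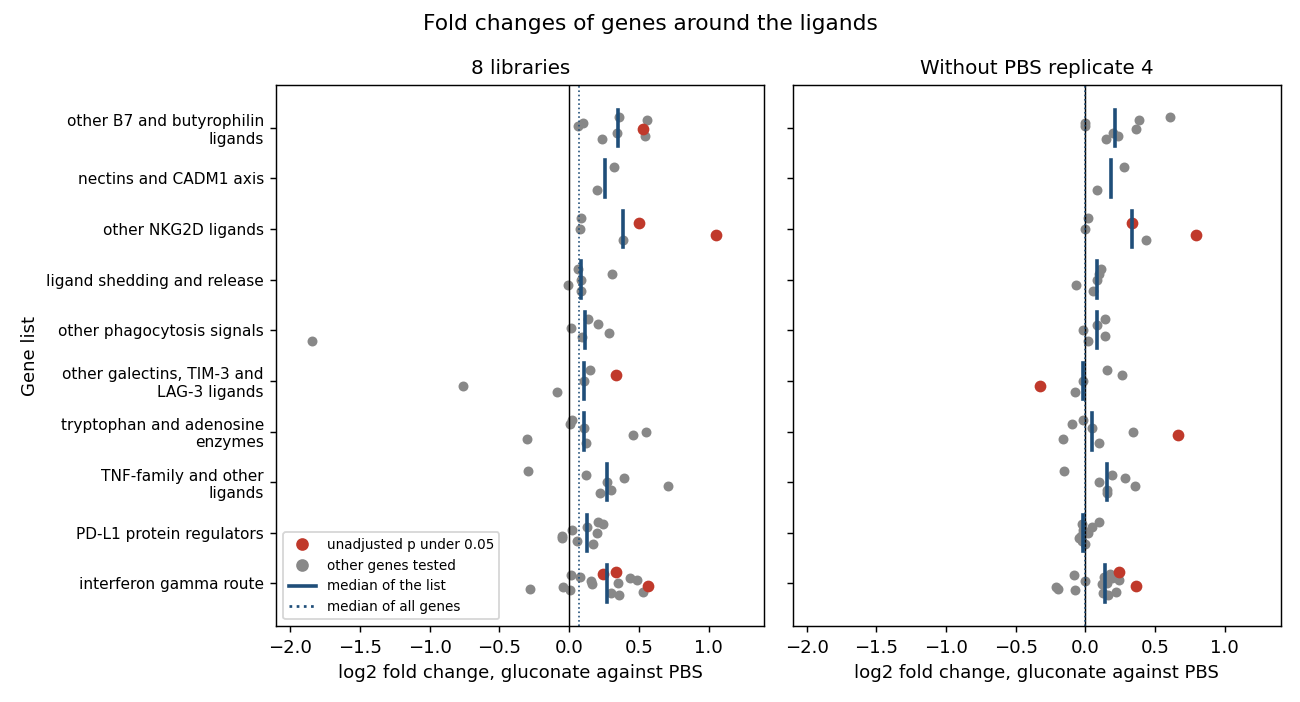
log2 fold change of gluconate against PBS for each tested gene of 10 lists around the ligands, with all libraries (left) and without PBS replicate 4 (right); red points have an unadjusted p under 0.05, blue bars are list medians and the dotted line is the median of all genes. No gene passed an adjusted p of 0.05 by limma, and most list medians lie nearer to 0 on the right.

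Most receptor genes of these ligands were near 0 in this table, while *SIRPA*, a receptor gene of myeloid cells, stood highest with a mean of 3.92 FPKM over 8 libraries. *PVRIG* lay between 0.390 and 0.852 FPKM. Of 18 receptor genes 15 were listed, 11 of them had a mean under 0.1 FPKM, and 11 were listed at 0 in PBS replicate 4. *PDCD1*, *CTLA4*, *TIGIT*, *CD226* and *HAVCR2* stayed under 0.1 FPKM in every library. How reads from the mouse host were treated is not given in the sources used here, so a part of mouse reads in these values cannot be told apart.

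Spread between libraries differed from ligand to ligand, and the map of library differences shows where it arose. In gluconate tumors the SD of log2 values ranged from 0.06 in *NECTIN2* to 0.31 in *ULBP2*, with a median of 0.13 over the 8 genes and 0.12 over all genes tested. In PBS tumors it ranged from 0.09 in *MICA* to 0.83 in *LGALS9*, with medians of 0.25 for both. Without PBS replicate 4 the PBS medians were 0.09 over the 8 genes and 0.14 over all genes. PBS replicate 4 was the lowest library for 6 of the 8 genes, and also for 58% of all genes tested. The exceptions were *CD274* and *NECTIN2*, which were lowest in PBS replicate 3. Gluconate replicate 4 was the highest library for 4 of the 8 genes (*CD47*, *MICA*, *CD276* and *ULBP2*), against 15.2% of all genes tested.

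**Figure D4:**
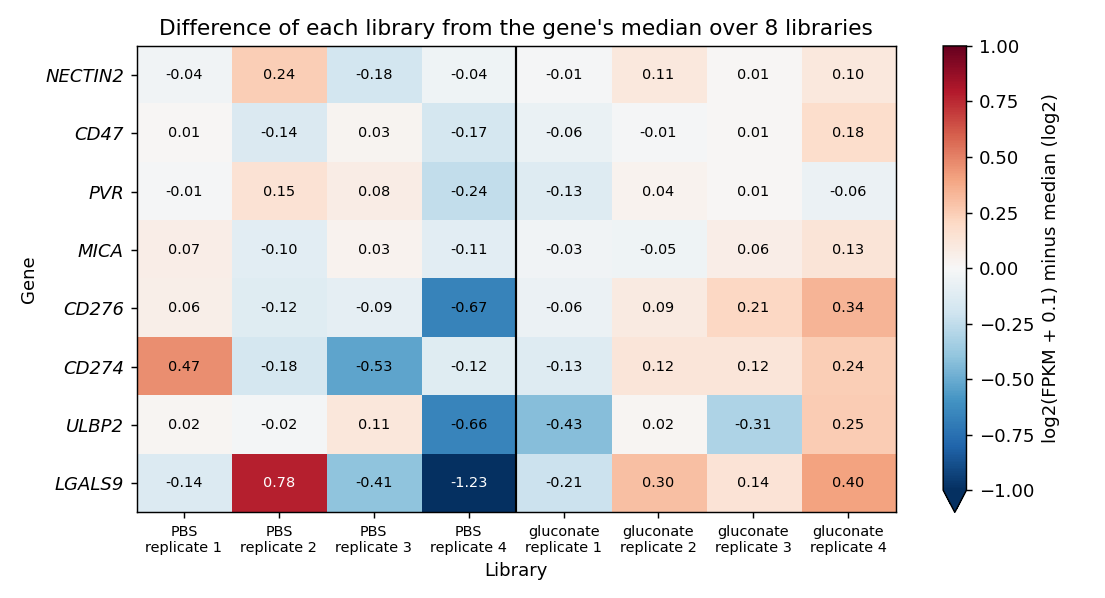
Difference of each library from the median of the gene over 8 libraries, in log2(FPKM + 0.1), for the 8 genes tested; the black line divides PBS from gluconate. PBS replicate 4 is low for *CD276* (-0.67), *ULBP2* (-0.66) and *LGALS9* (-1.23), the last shown past the end of the color scale.

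The counting intervals of PBS replicate 4 covered the other libraries to a different extent from gene to gene. Its interval for *MICA* (10.2 to 16.3 FPKM, 74 fragments) contained the values of all other libraries. For *ULBP2* the interval of 1.38 to 4.24 FPKM contained 5 of the other 7 values. For *PVR* the interval of 11.3 to 14.2 FPKM contained 1 of the other 7, and for *CD276* none. The sum of the human fibroblast markers was also low in that library, at 45.3 FPKM against at least 130 FPKM in the other PBS libraries. *COL1A1* made up most of that sum, with 41.4 FPKM against 121 to 182 FPKM in the other 7. Of the 9 fibroblast markers 4 had a mean under 0.1 FPKM, among them *COL1A2*, *DCN* and *PDGFRA*. The part of these differences in the ligand values was not tested.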

How the data were processed

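RNA-seq (polyA RNA, paired reads of 150 bases) of 8 orthotopic tumors was analysed. The authors deposited 1 table of FPKM values, and the build GRCh38 comes from the submitters' processing notes. The aligner, the counting and the annotation are not given in the sources used here. The columns carry the letters C and T, read as PBS and gluconate from the axis of the study's volcano plot. The study's text speaks of treated cells and the labels of tumors, and the labels were followed. No column of the table was left out, and 12 libraries of knockout cells and their controls were not analysed here.

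Whole fragments were recovered from the FPKM steps (100% of values above 0 within 0.001 of a whole number). They gave the depths and exact Poisson intervals (95%), which cover counting error only. Groups were compared with limma 3.58.1 in R 4.3.3 (lmFit, eBayes with a trend, two-sided) on log2(FPKM + 0.1) for the 12486 genes whose mean was 0.5 FPKM or more. The script was tested on simulated data. The exact permutation test used the 70 splits of 8 libraries, or 35 without PBS replicate 4, where p cannot go below 0.0571. A fold change on this scale understates the change of low genes. Alternatives were other pseudocounts, filters and scalings, voom on the fragments, blocking by replicate number and dropping each library, and voom without PBS replicate 4 was added after seeing the data. A block by replicate number was not used in the comparison reported, because no label says that equal numbers share an animal, litter or day.

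All 10 ligand genes are named, and from the related lists those with an unadjusted p under 0.05, those without overlap, the highest of each list and direct partners; *IL4I1*, *ADAM10*, *ADAM17* and the marker and receptor genes given as examples were chosen after their values were seen. The ligand genes and lists were chosen with earlier results of these data known. Sequences were RefSeq's (GRCh38.p14), and shared stretches were counted in GENCODE 29 transcripts with Python 3.11.15.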

Additional observations from a re-analysis of the deposited data

Results flagged for a closer look

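In groups of 4 libraries, a library was singled out when its gap to the nearest other exceeded Dixon's 95% critical value as a share of the range of its group. Of 87 groups examined 9 met this, and for continuous, normal values chance singles out about 1 in 20. That rate does not hold where 3 libraries are at 0, as for *VTCN1* and *TDO2*, since any value above 0 is then singled out. Among the ligands this was *VTCN1*, at 0.00653 FPKM (1 fragment) in gluconate replicate 4 and at 0 in the others. PBS replicate 4 accounted for 6 of the 9, with 3953206 fragments, 15514 genes above 0 (20014 to 20117 in the other PBS libraries), 6.59 FPKM of *ULBP3* (8.15 to 8.46), 192 FPKM of *HMGB1* (54.3 to 62.3), 1.36 FPKM of *ITGAM* (0.718 to 0.764) and 0.0688 FPKM of *PECAM1* (0.385 to 0.432). *CMTM6* was at 34.1 FPKM in gluconate replicate 4 and 31.0 to 31.2 in the other gluconate libraries, and *TDO2* was at 0.0438 FPKM in gluconate replicate 1 and at 0 in the other 3.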

How the results depend on the processing

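Under 18 alternatives no adjusted p of a ligand gene fell under 0.05 (144 values by limma). The count of these genes at an unadjusted p under 0.05 was 0, became 1 under median-ratio scaling and 1 under quantile normalization (*CD276* in both), and ranged from 0 to 2 when 1 library was left out: 2 without PBS replicate 1, and 1 without PBS replicate 2 or gluconate replicate 1. Over all genes this count was 577, and it was 1216 without PBS replicate 1, 874 without PBS replicate 2, 288 without gluconate replicate 3, 267 without gluconate replicate 4 and 1028 without the filter. Its split was 391 higher and 186 lower, 368 and 350 under median-ratio scaling, 430 and 353 under quantile normalization, 336 and 258 with voom and 357 and 421 without PBS replicate 4. The median log2 fold change ranged from 0.04 to 0.13 when 1 library was left out and from 0.01 to 0.08 otherwise. Estimates near 0 changed sign. Median-ratio scaling gave -0.0110 for *NECTIN2*, -0.0461 for *ULBP2* and -0.00885 for *MICA*, and quantile normalization gave -0.0577 for *ULBP2*. Voom gave -0.10 for *ULBP2* with all libraries and -0.15 without PBS replicate 4. Leaving out 1 library moved *CD274* from 0.0363 to 0.37, *CD276* from 0.20 to 0.44, *LGALS9* from 0.0788 to 0.75, *PVR* from -0.10 to 0.0265, *NECTIN2* from -0.00225 to 0.14 and *ULBP2* from -0.16 to 0.12. The cause was not tested.

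With the replicate block the count was 0 and the median 0.08, and no ligand gene changed its side of either threshold. In the related lists the block left 4 genes higher and 1 lower (*NT5E*) at an unadjusted p under 0.05, against 7 and 0, and 1 higher in the interferon gamma list, against 3. Over all genes 470 had an unadjusted p under 0.05 with the block, against 577 without it. Correlations of same-numbered PBS and gluconate libraries ran from -0.178 to 0.165, and those of other-numbered libraries from -0.210 to 0.163. These values use a different measure from the correlations between libraries given in the Results. The numbers were not taken as pairs, because no label ties them. Depth limits *IDO1*, *VTCN1*, *LGALS9* and *ULBP2*, above all in PBS replicate 4, where 1 fragment was worth up to 0.180 FPKM.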
